A study of Mus musculus with 18 samples.

Results

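Natriuretic peptides, endothelin and their receptors were followed as 9 genes across cultures of neonatal ventricular cardiac fibroblasts from mice. The genes were chosen by symbol: the ligand genes Nppa, Nppb and Edn1, the endothelin-processing enzyme gene Ece1, the natriuretic peptide receptor genes Npr1, Npr2 and Npr3, and the endothelin receptor genes Ednra and Ednrb. All 9 were found among the 18264 genes of the deposited expression table. The study changed the level of the cell-cycle transcription factor Foxm1 and sequenced mRNA from 18 libraries, 3 in each of 6 groups. In the knockdown arm, si-NC was the negative control, si-Foxm1 had Foxm1 knocked down, Ang-II had been stimulated with angiotensin II, and si-Foxm1+Ang-II combined both treatments. In the overexpression arm, OE-NC was the negative control and OE-Foxm1 overexpressed Foxm1. The labels give no dose or time of angiotensin II, no vector, no strain or exact age, and do not say whether the Ang-II cultures also received a control RNA. They also do not say whether replicates came from separate animals or cultures, so p-values measure only the spread between these samples.

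Natriuretic peptides are hormones best known from heart muscle cells. Atrial (Nppa) and brain-type (Nppb) peptides act through the receptor guanylyl cyclase Npr1, C-type peptide (Nppc) acts through Npr2, and Npr3 mainly clears all of them from the surroundings. Endothelin-1 (Edn1) is a constricting and growth-promoting peptide that is cut from its precursor by Ece1 and acts on the G protein-coupled receptors Ednra and Ednrb; in fibroblasts both peptide systems are studied for their opposed effects on matrix production.

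Levels are in FPKM, fragment counts scaled to transcript length and library depth, which allows genes of different length to be set side by side. Whole fragment counts could be recovered from the steps between FPKM values, and they put the depth at 14988993 to 19343343 fragments per library, with the OE-NC libraries the shallowest (at most 16384195). Foxm1 itself was at 10.1 ± 0.41 FPKM (SD, n = 3, as throughout) in si-NC, 5.97 ± 0.79 in si-Foxm1, 4.64 ± 0.88 in Ang-II and 3.31 ± 0.26 in si-Foxm1+Ang-II, and at 16.6 ± 0.80 in OE-NC against 455 ± 48.7 in OE-Foxm1. Its direction followed the labels in both arms, and it was also lower with angiotensin II. All 12 fibroblast markers examined had a mean of at least 1 FPKM, with summed levels of 4271.9 to 5612.6 FPKM per library. So did all 22 cardiomyocyte markers, whose sum, 6940.2 to 14832.3 FPKM per library, was above that of the fibroblast list in every group, so the cultures also carried abundant heart muscle RNA. In bulk samples, fewer cells of a type and less RNA per cell cannot be told apart.

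The 9 genes differed widely in level. Nppa ran from 900.5 to 3655 FPKM over the 18 libraries and ranked second among all genes in each si-NC and Ang-II library. Nppb ran from 30.0 to 185 FPKM, Ece1 from 25.6 to 44.6, Npr2 from 14.3 to 20.2 and Edn1 from 13.3 to 19.3. The other receptors were low, with Npr3 at 1.26 to 7.10 FPKM, Ednrb at 0.623 to 4.55 and Ednra at 1.41 to 3.23. Npr1, the receptor for the products of the 2 natriuretic peptide genes just named, was at only 0.145 to 0.431 FPKM, or 11 to 33 fragments per library. Of the related ligand genes, Nppc had 0 fragments in all 18 libraries, where a count of 0 still allows 3 fragments in a library. Edn2 had 5 and Edn3 had 8 fragments over all libraries together. The panel of levels by library shows these values.

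**Figure D1:**
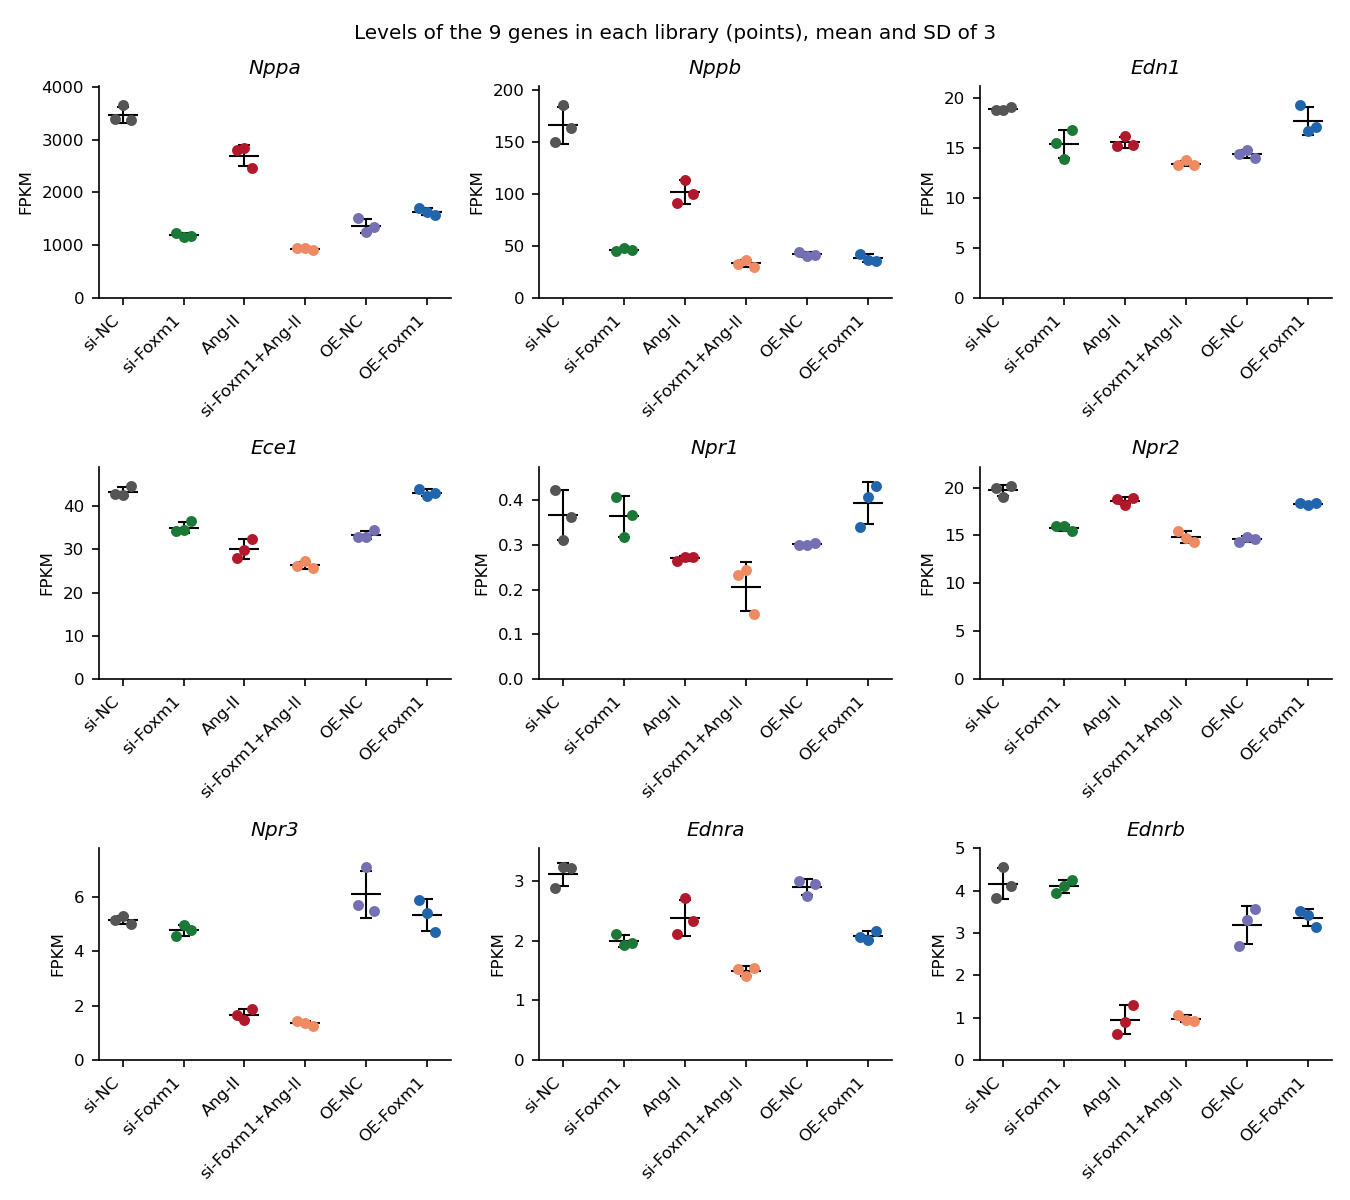
FPKM (y axis, linear from 0, a scale for each panel) of the 9 genes in the 3 libraries of each of the 6 groups (points), with the mean and SD of 3 in black. Nppa and Nppb are highest in si-NC, followed by Ang-II, and Npr3 and Ednrb are lowest in the 2 groups given angiotensin II.

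Nppa and Nppb are neighbours in the genome: their starts lie 14822 bases apart on the plus strand of chromosome 4 (RefSeq, GRCm38.p6). Because they showed the largest responses of the 9 genes to Foxm1 knockdown, the 250 bases before each start are printed, 5′ to 3′, from the RefSeq promoter table of that build. Capitals mark the letters of the GATA motif (TGATAA or AGATAA) and of the TEAD motif (CATTCC, which reads as its reverse complement on the plus strand). The windows are chr4:148000472-148000721 for Nppa and chr4:147985650-147985899 for Nppb.
Nppa: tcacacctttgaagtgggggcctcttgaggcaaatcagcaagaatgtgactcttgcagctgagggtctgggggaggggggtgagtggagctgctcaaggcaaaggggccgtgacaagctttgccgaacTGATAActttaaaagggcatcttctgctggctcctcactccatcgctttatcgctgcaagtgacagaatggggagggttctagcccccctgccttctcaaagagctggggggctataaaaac
Nppb: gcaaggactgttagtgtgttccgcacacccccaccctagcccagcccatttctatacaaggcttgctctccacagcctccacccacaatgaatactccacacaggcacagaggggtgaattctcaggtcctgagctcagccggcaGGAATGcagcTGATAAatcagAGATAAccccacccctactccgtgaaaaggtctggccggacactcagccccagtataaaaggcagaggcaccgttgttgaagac
TGATAA began 122 bases before the Nppa start and 95 bases before the Nppb start. The Nppb window also held AGATAA at 84 bases and the TEAD letters at 105 bases before the start, so its 3 matches lay within a short stretch. Among 32851 promoter windows of the same length, 7.94% held TGATAA, 9.99% AGATAA and 12.6% CATTCC on either strand. Of the other members, whose 9 symbols all had a window, only Edn1 held one of these letters, CATTCC at 207 bases before its start. The short NKX2-5 core AAGTG occurred at 239 and 65 bases before the Nppa start, but 40.7% of all windows held it. A loose CArG outline, CC and GG with 6 bases of any kind between them, was in 67.1% of windows, and was present in that of Nppa and absent from that of Nppb. No window of the 9 genes held the forkhead letters GTAAACA or the AP-1 letters TGANTCA, which 3.17% and 6.75% of windows held. These are matches of letters only.

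Of the 9 genes, 8 reached a mean of 1 FPKM in each arm and were tested with limma on log2(FPKM + 1), with p-values adjusted by Benjamini-Hochberg over 11180 genes in the knockdown arm and 11259 in the overexpression arm. With Foxm1 knockdown (si-Foxm1 against si-NC), 6 of the 8 fell and none rose, where 17.2% of all genes tested fell and 48.5% rose. With knockdown under angiotensin II (si-Foxm1+Ang-II against Ang-II), 7 of 8 fell, against 17.4% of all genes that fell and 44% that rose. With angiotensin II (Ang-II against si-NC), 7 of 8 fell, against 29.2% of all genes that fell and 15.2% that rose, and with angiotensin II after knockdown (si-Foxm1+Ang-II against si-Foxm1), 7 of 8 fell, against 34.6% and 12.9%. With Foxm1 overexpression (OE-Foxm1 against OE-NC), 4 of 8 rose and 1 fell, against 27.1% and 28% of all genes. No member passed the test for a difference of the knockdown effect with and without angiotensin II, which 0.921% of all genes passed. The 4 comparisons of the knockdown arm share groups with each other, so they are not separate evidence. Scaling the libraries by median of ratios moved the median difference over all genes with knockdown from 0.11 to 0.01 (log2) and the share of calls that were higher from 73.8% to 48.6%. For Ang-II against si-NC it moved the calls from 1702 higher and 3268 lower to 2452 and 2451. It moved the share that were higher from 71.7% to 50.4% for si-Foxm1+Ang-II against Ang-II, from 27.1% to 51.0% for si-Foxm1+Ang-II against si-Foxm1, and from 43.7% to 58.1% for the difference of the knockdown effects. No member call in the 5 group comparisons changed sign with it.

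**Figure D2:**
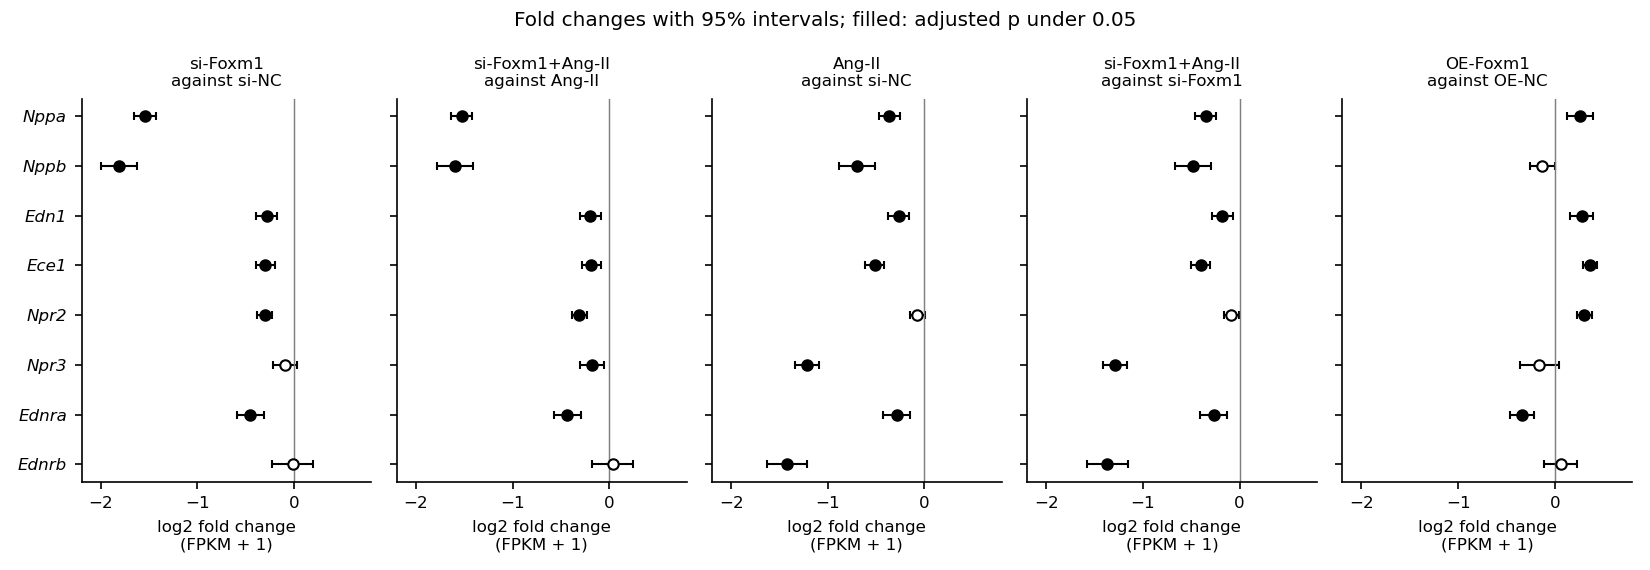
Difference in log2(FPKM + 1) (x axis) with its 95% interval from limma for the 8 genes tested, in 5 comparisons. Filled circles passed at an adjusted p under 0.05; Nppa and Nppb lie farthest left with Foxm1 knockdown, Npr3 and Ednrb with angiotensin II, and 4 genes lie to the right of 0 with overexpression.

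The gene of atrial natriuretic peptide, Nppa, fell far below its control level with Foxm1 knockdown. It was at 3386, 3655 and 3377 FPKM in si-NC and at 1239, 1160 and 1173 FPKM in si-Foxm1. The groups lay far apart, and the knockdown level was 34.3% of the control level (log2 difference -1.54 ± 0.05 SE, adjusted p = 4.7e-11). Under angiotensin II the drop was of similar size, from 2799, 2836 and 2468 FPKM to 951, 954 and 900.5 FPKM, which left 34.6% (log2 difference -1.53 ± 0.05, adjusted p = 5.88e-11). The difference between these 2 effects was 0.02 on the log2 scale, with a 95% interval of -0.14 to 0.17. In si-NC Nppa alone held 0.290 to 0.314% of all fragments, and in si-Foxm1+Ang-II it held 0.0774 to 0.0821%, where its rank among genes was 29 to 33.

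The gene of brain natriuretic peptide, Nppb, fell further. Its level was 150, 185 and 163 FPKM in si-NC and 44.7, 48.0 and 46.5 FPKM in si-Foxm1, or 27.9% of control (log2 difference -1.81 ± 0.09, adjusted p = 1.56e-09). With angiotensin II present it was at 91.7, 114 and 100 FPKM without knockdown and at 32.6, 36.9 and 30.0 FPKM with it, which left 32.5% (log2 difference -1.59 ± 0.09, adjusted p = 4.84e-09). The knockdown groups stood below their controls in every library. The change of the knockdown effect with angiotensin II was 0.22 on the log2 scale, with a 95% interval of -0.04 to 0.49 and an adjusted p of 0.436. Nppa and Nppb did not keep a fixed ratio: Nppa over Nppb in FPKM was 19.7 to 22.5 in si-NC, 24.2 to 27.7 in si-Foxm1 and 24.6 to 30.5 in Ang-II.

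Angiotensin II lowered both peptide genes. Nppa in the Ang-II libraries was at 77.8% of the si-NC level (log2 difference -0.36 ± 0.05, adjusted p = 5.37e-05) and Nppb at 61.3% (-0.70 ± 0.09, adjusted p = 1.83e-05). After knockdown the further drops were -0.35 ± 0.05 for Nppa (adjusted p = 8.1e-05) and -0.48 ± 0.09 for Nppb (adjusted p = 0.000468) on the log2 scale. No library of a group with angiotensin II reached the lowest library of its control for either gene. Quantile normalization, which gives genes of the same rank the same value, set the Nppa difference between Ang-II and si-NC to 0.00 because Nppa ranked second in all 6 libraries.

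Overexpression of Foxm1 separated the 2 peptide genes. Nppa was at 1508, 1250 and 1350 FPKM in OE-NC and at 1700, 1639 and 1569 FPKM in OE-Foxm1. The groups did not overlap and the increase was 0.26 ± 0.06 on the log2 scale (adjusted p = 0.00373). Nppb was at 44.3, 40.3 and 41.0 FPKM against 42.3, 36.6 and 35.9 FPKM. These ranges overlapped, and the difference of -0.13 ± 0.06 (95% interval -0.26 to 0.00) did not pass (adjusted p = 0.0854). Without OE-Foxm1 replicate 1 it passed, at -0.20 (adjusted p = 0.00532). The ratio of Nppa to Nppb was 31.0 to 34.0 in OE-NC and 40.2 to 44.7 in OE-Foxm1. The 2 control groups themselves differed, since Nppa was 3473 ± 158 FPKM in si-NC and 1369 ± 130 in OE-NC, so tests were made only within an arm.

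The summed heart muscle markers moved in the direction of both peptide genes in the knockdown arm, and of Nppa but not Nppb with overexpression. The summed level of the 22 cardiomyocyte markers was 13814.2 to 14832.3 FPKM in si-NC, 9003.4 to 9534.5 in si-Foxm1, 10610.3 to 11418.7 in Ang-II, 6940.2 to 7190.3 in si-Foxm1+Ang-II, 9164.2 to 9538.7 in OE-NC and 10017.0 to 10414.7 in OE-Foxm1, and no marker was at 0 in every library. Of the 22, 18 fell and 2 rose with knockdown, against 17.2% and 48.5% of all genes tested. Knockdown under angiotensin II lowered 17 and raised 3, against 17.4% and 44%. Angiotensin II lowered 21 and raised 1, against 29.2% and 15.2%. With overexpression, 12 rose and 3 fell, against 27.1% and 28%. The markers that changed most with knockdown were Tcap (27.2 to 2.75 FPKM, log2 difference -2.95), a titin-binding sarcomere protein, Casq2 (169 to 28.7 FPKM, -2.52), the calcium store protein calsequestrin, and Actc1 (2839 to 605 FPKM, -2.23), cardiac actin. Nppa as a ratio to the summed markers was 0.234 to 0.246 in si-NC, 0.126 to 0.130 in si-Foxm1, 0.233 to 0.255 in Ang-II and 0.130 to 0.136 in si-Foxm1+Ang-II. Against these markers Nppa was thus lower with knockdown in every library, while the Ang-II and si-NC ranges overlapped. The ratio of Nppb to the same sum was lower in Ang-II (0.00834 to 0.00996) than in si-NC (0.0109 to 0.0125) without overlap. With knockdown the Nppb ratio was 0.00469 to 0.00523 in si-Foxm1, below all si-NC libraries. In the overexpression arm the Nppa ratio was 0.135 to 0.158 in OE-NC and 0.157 to 0.163 in OE-Foxm1, which overlapped. The Nppb ratio was 0.00436 to 0.00464 in OE-NC and lower in OE-Foxm1, at 0.003555 to 0.004061, without overlap. The choice of marker mattered: with knockdown Nppa over the atrial light chain Myl7 went from 11.3 ± 0.22 to 8.21 ± 0.18, while Nppa over Actc1 went from 1.22 ± 0.06 to 1.97 ± 0.12. The part of heart muscle RNA in the changes of Nppa and Nppb was not tested.

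Macrophage and leukocyte markers also differed between the groups. The sum of 11 such markers was 251.9 to 258.7 FPKM in si-NC, 128.8 to 159.9 in si-Foxm1, 306.7 to 335.8 in Ang-II, 126.5 to 146.6 in si-Foxm1+Ang-II, 187.2 to 206.5 in OE-NC and 268.0 to 304.0 in OE-Foxm1, and no marker was at 0 in every library. Of 8 tested, 8 fell with knockdown, both without and with angiotensin II, against 17.2% and 17.4% of all genes. In Ang-II against si-NC 4 rose and 1 fell, against 15.2% and 29.2% of all genes. In si-Foxm1+Ang-II against si-Foxm1 2 rose and 2 fell, against 12.9% and 34.6%. With overexpression 5 rose and 2 fell, against 27.1% and 28%. Nppa, Edn1, Ece1 and Npr2 likewise fell with knockdown and rose with overexpression. These directions were not particular to macrophage and leukocyte markers. Most called heart muscle markers had them, and of 12 fibroblast markers 5 fell and 2 rose with knockdown. With overexpression 8 of the fibroblast markers rose and 1 fell. The part of any of these cell types in the values of the named genes was not tested.

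**Figure D3:**
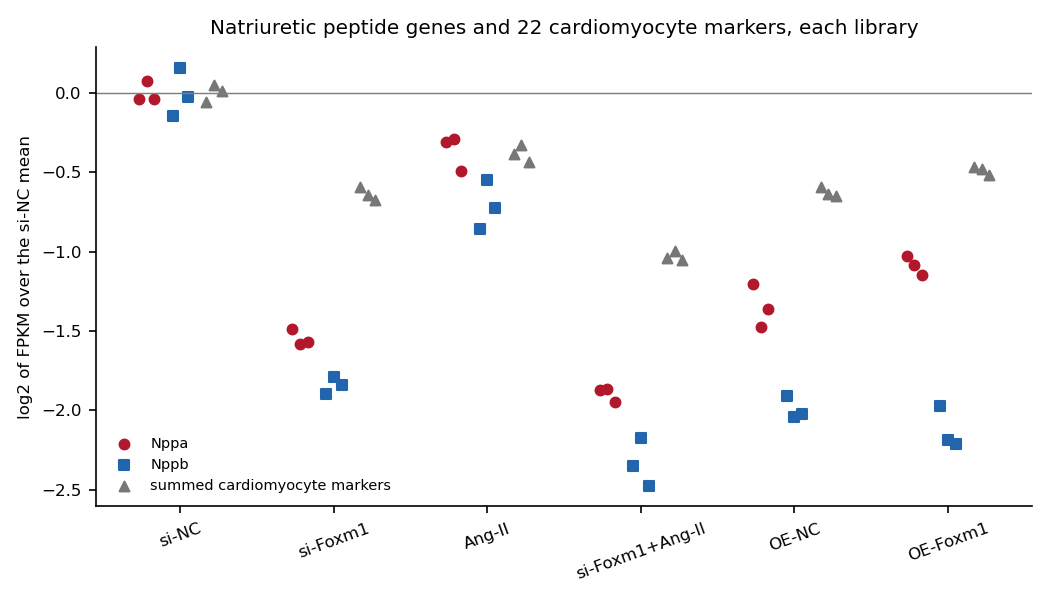
Log2 of the FPKM in each library over the si-NC mean (y axis) for Nppa, Nppb and the summed 22 cardiomyocyte markers, in the 6 groups (3 points each). With knockdown both peptide genes lie below the marker sum, and in the Ang-II group the Nppa points lie at the level of the marker sum.

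The endothelin-1 gene, Edn1, changed by much less. It was at 18.8, 18.8 and 19.1 FPKM in si-NC and at 15.5, 13.9 and 16.8 FPKM in si-Foxm1, 81.6% of control (log2 difference -0.28 ± 0.05, adjusted p = 0.000282). In Ang-II it was at 15.2, 16.2 and 15.3 FPKM (-0.26 ± 0.05, adjusted p = 0.000824). The combined treatment gave 13.3, 13.8 and 13.3 FPKM. All 9 treated libraries of that arm were below all 3 si-NC libraries. The combined group was lower than Ang-II (-0.20 ± 0.05, adjusted p = 0.00413) and than si-Foxm1 (-0.18 ± 0.05, adjusted p = 0.00994), but the latter did not pass after median-of-ratios scaling (adjusted p = 0.126) or quantile normalization (adjusted p = 0.089). With overexpression Edn1 rose from 14.4, 14.8 and 13.98 FPKM to 19.3, 16.7 and 17.1 FPKM (0.28 ± 0.05, adjusted p = 0.00116).

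Ece1, the membrane protease that releases active endothelin-1, was at a higher level than Edn1 in every group. It was at 42.8, 42.7 and 44.6 FPKM in si-NC, 34.3, 34.5 and 36.5 in si-Foxm1, 28.0, 29.8 and 32.4 in Ang-II and 26.1, 27.2 and 25.6 in si-Foxm1+Ang-II. None of these groups overlapped with another. The angiotensin II effect (log2 difference -0.52 ± 0.05, adjusted p = 1.08e-06) and the knockdown effect (-0.30 ± 0.05, adjusted p = 7.71e-05) both passed. Under angiotensin II the knockdown effect was -0.19 ± 0.05 (adjusted p = 0.00339). With overexpression Ece1 rose from 32.8, 32.9 and 34.5 FPKM to 44.0, 42.4 and 43.1 FPKM, to 129% of control (0.36 ± 0.03, adjusted p = 9.25e-06). Endothelial cells are a main source of endothelin-1, and their markers are given beside these values. The summed level of 11 endothelial markers was 84.9 to 92.7 FPKM in si-NC and 103.5 to 107.6 in si-Foxm1, with 5 of 9 tested higher and 1 lower. These counts are near the shares of all genes tested, 48.5% higher and 17.2% lower. With median-of-ratios scaling 4 of the markers were higher and 2 lower. In Ang-II the marker sum was 62.8 to 70.2 FPKM, with 7 of 9 lower and 0 higher, against 29.2% and 15.2% of all genes. It was 70.5 to 77.5 in OE-NC and 82.1 to 91.0 in OE-Foxm1. The part of endothelial RNA in the Edn1 and Ece1 values was not tested.

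Of the natriuretic peptide receptors, Npr2, the receptor of C-type peptide, was the most abundant. It was at 19.9, 19.1 and 20.2 FPKM in si-NC and 15.99, 15.95 and 15.46 in si-Foxm1, 80.2% of control (log2 difference -0.30 ± 0.04, adjusted p = 8.07e-06). The drop was like that in the presence of angiotensin II, from 18.8, 18.2 and 18.95 to 15.5, 14.7 and 14.3 FPKM (-0.31 ± 0.04, adjusted p = 6.69e-06). Overexpression raised it from 14.4, 14.9 and 14.7 to 18.4, 18.2 and 18.4 FPKM (0.31 ± 0.03, adjusted p = 4.06e-05). Angiotensin II made a difference of only -0.08 ± 0.04 without knockdown (adjusted p = 0.11) and -0.09 ± 0.04 with it (adjusted p = 0.0677), neither of which passed; the second passed without si-Foxm1+Ang-II replicate 1, at -0.11 (adjusted p = 0.026).

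The clearance receptor gene Npr3 showed the reverse pattern, with a large drop under angiotensin II. It was at 5.16, 5.31 and 5.01 FPKM in si-NC and at 1.67, 1.47 and 1.86 FPKM in Ang-II, or 32.2% of control (log2 difference -1.21 ± 0.06, adjusted p = 4.63e-09). After knockdown the level went from 4.57, 4.96 and 4.79 FPKM to 1.44, 1.37 and 1.26 FPKM, or 28.4% (-1.29 ± 0.06, adjusted p = 2.66e-09). Every library with angiotensin II was below every library without it. Knockdown alone made a difference of -0.09 ± 0.06 (adjusted p = 0.162). That difference passed after median-of-ratios scaling, at -0.20 (adjusted p = 0.00789), and after quantile normalization, at -0.21 (adjusted p = 0.00387). Under angiotensin II the knockdown difference was -0.17 ± 0.06 (adjusted p = 0.0169); it did not pass without Ang-II replicate 3 (-0.12, adjusted p = 0.0778) or without si-Foxm1+Ang-II replicate 3 (-0.15, adjusted p = 0.0665). Overexpression gave -0.16 ± 0.09 (adjusted p = 0.16), with overlapping ranges of 5.47 to 7.10 and 4.72 to 5.90 FPKM.

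Npr1 stayed below the limit of 1 FPKM for the test in all groups. Its mean was 0.366 ± 0.056 FPKM in si-NC, 0.364 ± 0.045 in si-Foxm1, 0.270 ± 0.006 in Ang-II, 0.207 ± 0.054 in si-Foxm1+Ang-II, 0.302 ± 0.002 in OE-NC and 0.393 ± 0.047 in OE-Foxm1. The si-NC and si-Foxm1 ranges overlapped (exact permutation test, two-sided, p = 1). The other 4 group pairs did not overlap, each with an exact permutation p of 0.1, the smallest that 3 against 3 libraries allow. When genes down to a mean of 0.1 FPKM were tested with limma, Npr1 passed only for si-Foxm1+Ang-II against si-Foxm1 (-0.18 ± 0.05, adjusted p = 0.00972). With no filter at all it passed there (adjusted p = 0.00455) and also for OE-Foxm1 against OE-NC (0.10 ± 0.03, adjusted p = 0.0475).

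Ednra, the endothelin receptor of contractile and mesenchymal cells, was lower in every treated group than in its control. It was at 2.88, 3.23 and 3.22 FPKM in si-NC and 2.11, 1.93 and 1.97 FPKM in si-Foxm1, 64.3% of control (log2 difference -0.45 ± 0.06, adjusted p = 3.89e-05). Under angiotensin II, knockdown took it from 2.11, 2.71 and 2.33 to 1.52, 1.41 and 1.55 FPKM (-0.44 ± 0.06, adjusted p = 5.94e-05). Angiotensin II itself lowered it by a smaller step (-0.29 ± 0.06, adjusted p = 0.00277 without knockdown, and -0.27 ± 0.06, adjusted p = 0.00391, with it). In the overexpression arm Ednra fell as well, from 3.003, 2.753 and 2.949 FPKM to 2.06, 2.01 and 2.17 FPKM (-0.34 ± 0.06, adjusted p = 0.000465). Nppa, Edn1, Ece1 and Npr2 fell with knockdown and rose with overexpression, whereas Ednra fell with both; the difference between the arms was not tested. Ednra is also a gene of smooth muscle cells and pericytes. Of their 8 tested markers 5 fell and 0 rose with knockdown, against 17.2% and 48.5% of all genes. With angiotensin II 5 fell and 2 rose, against 29.2% and 15.2%. With overexpression 4 fell and 1 rose, against 28% and 27.1%. The part of these cells in the Ednra values was not tested.

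Ednrb, the receptor that also clears endothelin, responded to angiotensin II and showed no detected response to Foxm1. It was at 3.82, 4.55 and 4.10 FPKM in si-NC and at 0.623, 0.903 and 1.31 FPKM in Ang-II, which is 22.7% of control or 4.41-fold lower in the means. The Ang-II libraries, from 65, 91 and 131 fragments, varied among themselves but lay far below control (log2 difference -1.42 ± 0.10, adjusted p = 1.03e-07). The pseudocount of 1 understates this change, and with a pseudocount of 0.1 the log2 difference was -2.08. After knockdown the drop was from 3.95, 4.10 and 4.25 to 1.07, 0.946 and 0.912 FPKM, or 23.8% (-1.37 ± 0.10, adjusted p = 1.64e-07). Knockdown made a difference of -0.01 ± 0.10 without angiotensin II (95% interval -0.22 to 0.20, adjusted p = 0.909) and 0.04 ± 0.10 with it (interval -0.17 to 0.25, adjusted p = 0.762), the latter changing sign to -0.01 with median-of-ratios scaling and -0.05 with quantile normalization. Overexpression made a difference of 0.06 ± 0.08 (interval -0.11 to 0.23, adjusted p = 0.538). Ednrb is also a marker of Schwann cells and melanocytes; of 10 other markers of those cells, 9 had a mean below 1 FPKM, none was at 0 in every library, and their sum was 3.4 to 5.3 FPKM per library. Endothelial cells also express Ednrb, and 7 of their 9 tested markers fell with angiotensin II, among them Egfl7 (13.4 to 7.42 FPKM, log2 difference -0.78). Over all genes tested, 29.2% fell in that comparison. The part of these cell types in the result was not tested.

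Because the members of each receptor pair changed unequally, their ratios shifted. Ednrb was above Ednra in each si-NC library, with a ratio of FPKM of 1.27 to 1.41, and further above it in si-Foxm1, at 1.87 to 2.16. In Ang-II the order was turned, with a ratio of 0.296 to 0.561, and in si-Foxm1+Ang-II it was 0.588 to 0.702. The ratio was 0.896 to 1.21 in OE-NC and 1.44 to 1.70 in OE-Foxm1. Knockdown and overexpression thus both had the higher ratio against their own control, without overlap. The ratio of Npr2 to Npr3 was 3.59 to 4.02 in si-NC, 3.21 to 3.50 in si-Foxm1, 10.2 to 12.4 in Ang-II and 10.7 to 11.3 in si-Foxm1+Ang-II, and 2.10 to 2.68 in OE-NC against 3.11 to 3.91 in OE-Foxm1. The groups with angiotensin II stood apart from all others in this ratio.

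**Figure D4:**
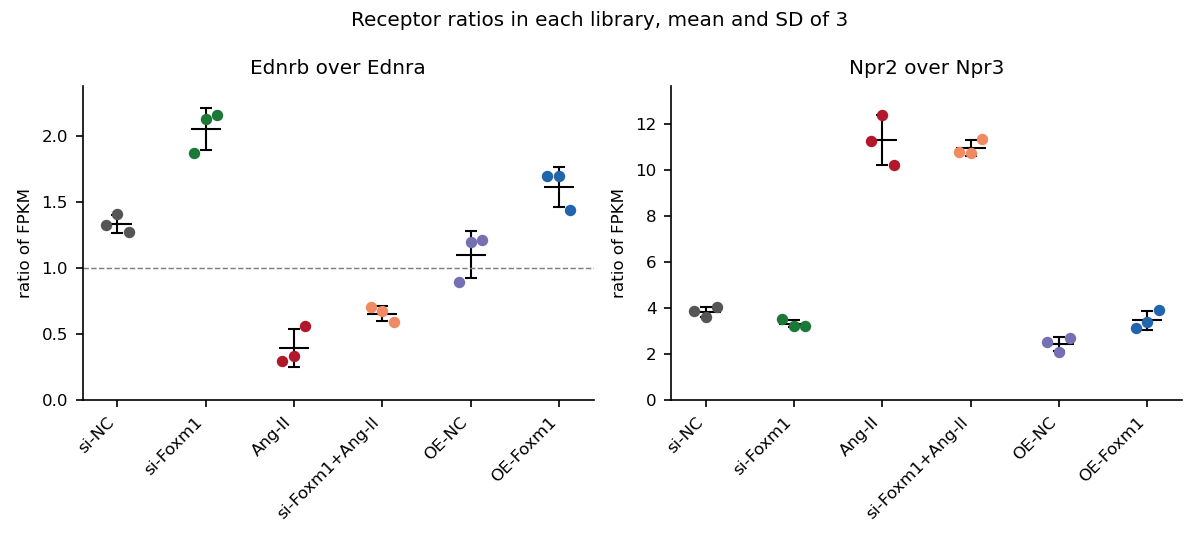
Ratio of FPKM (y axis, linear from 0) of Ednrb to Ednra (left; the dashed line marks equal levels) and of Npr2 to Npr3 (right) in each library, with the mean and SD of 3. In both groups with angiotensin II the Ednrb to Ednra ratio is below 1 in all libraries and the Npr2 to Npr3 ratio is at least 10.2.

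The order of the levels over the 6 groups differed between genes; as the arms have different controls, the order across arms is a description only. Nppa had no overlap between neighbours in that order, from si-NC through Ang-II, OE-Foxm1, OE-NC and si-Foxm1 to si-Foxm1+Ang-II. For Nppb, OE-Foxm1 overlapped with OE-NC and with si-Foxm1+Ang-II at the low end, but OE-NC and si-Foxm1+Ang-II did not overlap with each other. For Npr2, Ang-II overlapped with OE-Foxm1, and si-Foxm1, si-Foxm1+Ang-II and OE-NC overlapped in turn. For Edn1, the neighbours that overlapped were si-NC with OE-Foxm1, Ang-II with si-Foxm1, and si-Foxm1 with OE-NC. For Ece1, si-NC overlapped with OE-Foxm1, and si-Foxm1 with OE-NC. For Ednrb and Npr3, both groups with angiotensin II were the lowest of the 6; they overlapped with each other for Ednrb and did not for Npr3.

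Other genes of the natriuretic peptide pathway were read from a list of 17, of which 11 were tested. The list also held Gucy1a1 and Gucy1b1, subunits of the soluble guanylyl cyclase, which is not a natriuretic peptide receptor. All counts and medians of this list include them. With knockdown 4 rose and 3 fell, against 48.5% and 17.2% of all genes tested. The median log2 difference was 0.08 against 0.11 over all genes tested, and with median-of-ratios scaling 2 rose and 4 fell. Ide, the insulin-degrading enzyme that also cuts natriuretic peptides, rose from 20.3 to 33.8 FPKM (0.71 ± 0.03, adjusted p = 1.55e-09). Pcsk6, the protease that activates corin, fell from 18.24 to 10.96 FPKM (-0.69 ± 0.06, adjusted p = 5.74e-07). Corin, which cuts the Nppa precursor, moved against Nppa in the comparisons of Foxm1 level. It rose from 5.94 to 7.94 FPKM with knockdown (0.37 ± 0.05, adjusted p = 5.84e-05) and fell from 6.22 to 3.71 FPKM with overexpression (-0.61 ± 0.07, adjusted p = 3.14e-05). Furin, which cuts the Nppb precursor, went from 33.0 to 36.3 FPKM with knockdown (0.14 ± 0.05, adjusted p = 0.0283), a call that median-of-ratios scaling ended (adjusted p = 0.838). Pde2a, a cyclic nucleotide phosphodiesterase that cyclic GMP stimulates, fell from 24.2 to 20.7 FPKM (-0.22 ± 0.05, adjusted p = 0.00184).

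With angiotensin II, 7 of the 11 fell and 0 rose, against 29.2% and 15.2% of all genes tested (7 and 1 genes of the list with median-of-ratios scaling). The median was -0.20 against -0.04 over all genes. The soluble guanylyl cyclase subunit Gucy1b1 fell from 49.3 to 33.5 FPKM (-0.55 ± 0.07, adjusted p = 4.06e-05). Corin fell from 5.94 to 3.99 FPKM (-0.48 ± 0.05, adjusted p = 9.66e-06) and the phosphodiesterase Pde3a from 4.36 to 3.03 FPKM (-0.42 ± 0.08, adjusted p = 0.000679). After knockdown, too, angiotensin II lowered Corin, from 7.94 to 5.97 FPKM (-0.36 ± 0.05, adjusted p = 0.000116), so here it moved with Nppa. Furin stood at 33.0 and 36.2 FPKM (0.13 ± 0.05, adjusted p = 0.0518). Under angiotensin II, knockdown raised 5 of the 11 and lowered 4, against 44% and 17.4% of all genes (4 and 6 genes of the list with median-of-ratios scaling). After knockdown angiotensin II raised 2 and lowered 7, against 12.9% and 34.6%. With overexpression 4 rose and 4 fell, against 27.1% and 28%. The other soluble cyclase subunit, Gucy1a1, rose from 16.8 to 22.2 FPKM (0.38 ± 0.04, adjusted p = 1.19e-05). Gucy1a1 and Gucy1b1 were both among the 7 that fell in Ang-II against si-NC and the 4 that rose with overexpression.

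**Figure D5:**
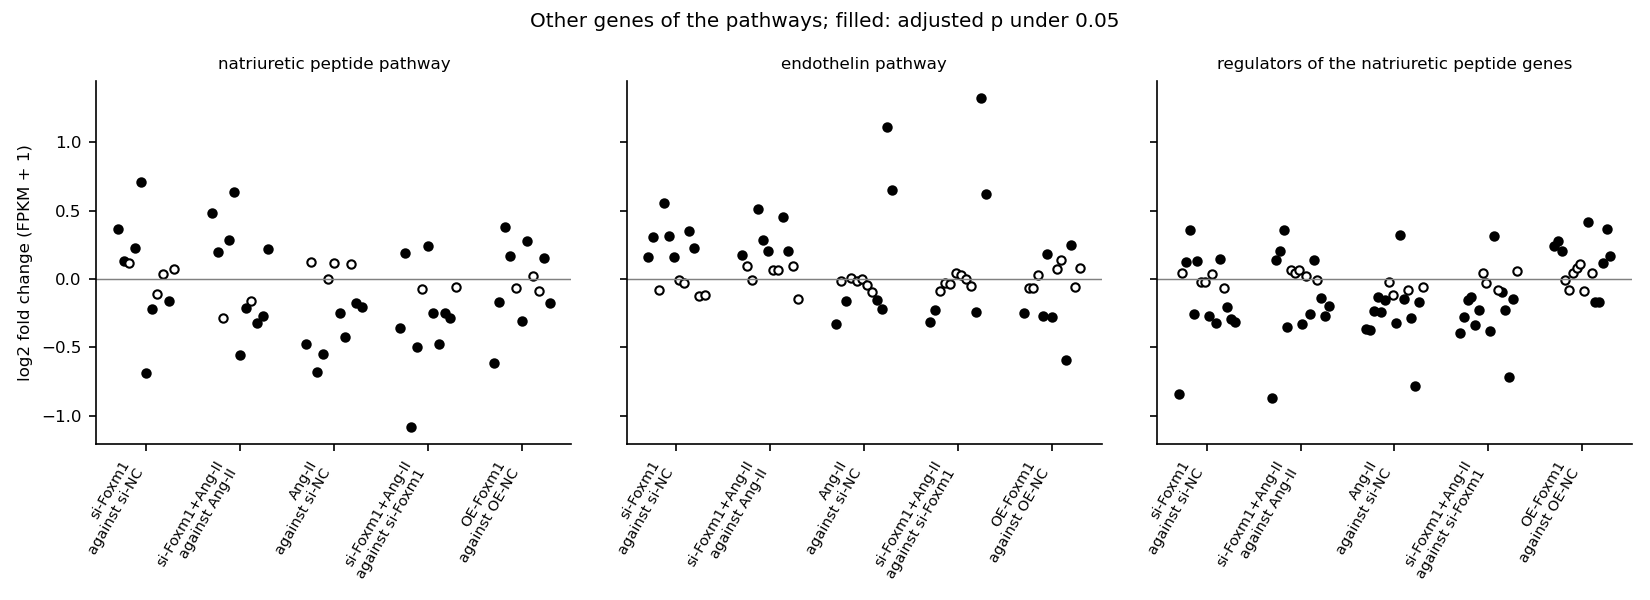
Difference in log2(FPKM + 1) (y axis) of the tested genes of 3 lists in 5 comparisons (x axis); each circle is a gene, filled at an adjusted p under 0.05. In the natriuretic peptide list no gene rises with angiotensin II against si-NC (1 does after median-of-ratios scaling), and in the endothelin list no gene falls with knockdown before rescaling of the libraries.

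Of 18 listed endothelin pathway genes in the table, 12 were tested in the knockdown arm. With knockdown 7 rose and 0 fell, against 48.5% and 17.2% of all genes tested. The median was 0.16 against 0.11 over all genes, and with median-of-ratios scaling 5 rose and 4 fell. Gna12 and Gna13, alpha subunits of the G proteins that signal to the cytoskeleton, rose from 39.6 to 58.8 FPKM (0.56 ± 0.03, adjusted p = 1.02e-08) and from 17.2 to 21.6 FPKM (0.31 ± 0.04, adjusted p = 3.83e-05). The phospholipase gene Plcb4 rose from 5.45 to 7.23 FPKM (0.35 ± 0.05, adjusted p = 7.64e-05). With angiotensin II 2 rose and 4 fell, against 15.2% and 29.2% of all genes. The 2 that rose were regulators of G protein signalling: Rgs4 from 1.88 to 5.31 FPKM (1.11 ± 0.13, adjusted p = 1.41e-05) and Rgs5 from 1.23 to 2.50 FPKM (0.66 ± 0.07, adjusted p = 3.8e-06). Arrb1, the gene of a beta-arrestin, which desensitizes such receptors, fell from 6.42 to 4.92 FPKM (-0.33 ± 0.06, adjusted p = 0.00089). Under angiotensin II, knockdown raised 6 and lowered 0 of the 12, against 44% and 17.4% of all genes, and raised 5 and lowered 2 with median-of-ratios scaling. After knockdown, angiotensin II raised 2 and lowered 3, against 12.9% and 34.6%, and with that scaling raised 4 and lowered 2. With overexpression 2 of 13 tested rose and 4 fell, against 27.1% and 28% of all genes.

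A list of 16 genes held regulators of the natriuretic peptide genes, chiefly transcription factors of heart muscle. With knockdown 4 rose and 7 fell, against 48.5% and 17.2% of all genes tested, and with median-of-ratios scaling 1 rose and 11 fell. Ankrd1, a stress-responsive muscle protein, fell from 1531 to 853 FPKM (-0.84 ± 0.03, adjusted p = 2.76e-10). Tead1 and Mef2a, transcription factors of muscle genes, fell from 62.3 to 49.9 FPKM (-0.31 ± 0.03, adjusted p = 8.7e-07) and from 30.1 to 25.1 FPKM (-0.25 ± 0.03, adjusted p = 5.74e-06). Hand2 rose from 19.1 to 24.8 FPKM (0.36 ± 0.04, adjusted p = 6.27e-06). With angiotensin II 1 rose and 11 fell, against 15.2% and 29.2% of all genes, and with median-of-ratios scaling 1 and 8. The falls were led by Tbx20 (112 to 65.1 FPKM, -0.78 ± 0.04, adjusted p = 9.52e-09) and Gata4 (64.5 to 49.5 FPKM, -0.37 ± 0.03, adjusted p = 7.92e-07). Gata4, whose motif letters stand in both printed promoters, was at 64.5 and 66.5 FPKM in si-NC and si-Foxm1 (0.04 ± 0.03, adjusted p = 0.24). Gata6, of the same family, rose with knockdown from 38.6 to 42.2 FPKM (0.13 ± 0.03, adjusted p = 0.00392). The median over all genes tested in that comparison was 0.11, above the Gata4 value and close to that of Gata6. Nkx2-5, whose core letters stand in the Nppa window, fell from 40.3 to 32.0 FPKM (-0.32 ± 0.05, adjusted p = 0.000114). With knockdown under angiotensin II 4 rose and 7 fell, against 44% and 17.4% of all genes (2 and 8 genes of the list with median-of-ratios scaling). Angiotensin II after knockdown raised 1 and lowered 11, against 12.9% and 34.6% (3 and 7 genes with that scaling). With overexpression 7 rose and 2 fell, against 27.1% and 28% of all genes. Among the 7 were Gata4 (0.28 ± 0.03, adjusted p = 1.93e-05) and Ankrd1 (0.24 ± 0.03, adjusted p = 0.000149).

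Across all 18 libraries, the genes whose log2(FPKM + 1) was most alike to each member were taken among 11021 genes by Pearson correlation, as a description: the libraries share 6 groups, and the group means set most of these values. For Nppa they were Lrrc10 (r = 0.984), Tpm1, Fam78a, Myh6 and Atp2a2, of which Tpm1, Myh6 and Atp2a2 encode tropomyosin, alpha myosin heavy chain and the calcium pump of the muscle store. For Nppb they were Synpo2l (0.978), Rbm38, Pde4dip, Pygb and Ankrd1. For Npr3 they were Map3k6 (0.978), Thy1, Sntb2, Ch25h and Ccdc68, and Thy1, a fibroblast surface marker, ran from 25.6 to 211 FPKM. For Ednrb they were Daam2 (0.979), Cyth3, Sdc4, Itga8 and Selenop. Ece1 was most alike to Cemip (0.977), Sema3f, H1f0, Prelp and Epas1, Npr2 to Scd1 (0.969), Ppp2r5b, Reep5, Pcp4l1 and Epm2aip1, Ednra to Wif1 (0.961), Vldlr, Tnni3k, Pacsin3 and Dmd, and Edn1 to Ston1 (0.932), Parva, Emp3, Tssc4 and Plac9a. By Spearman correlation 3 of the 5 genes named for Ece1, 2 for Nppa, 2 for Edn1, 1 for Nppb and 0 for the other 4 genes were again among the top 5. Among the members themselves, the highest Pearson values were those of Nppa with Nppb (r = 0.934, rho = 0.752) and of Npr3 with Ednrb (r = 0.934, rho = 0.542). The highest Spearman values were those of Ece1 with Edn1 (r = 0.862, rho = 0.847) and of Nppa with Npr2 (r = 0.865, rho = 0.818).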

How the data were processed

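RNA sequencing of total RNA, made into stranded mRNA libraries, was deposited by the authors as 1 table of FPKM per gene and library. Per the submitters' processing notes, fastp, HISAT2 and HTSeq were used with build mm39. FPKM values of a gene were whole multiples of 1 fragment in all 17960 genes above 0 (tolerance 0.02), which gave fragment counts and depth. Values were tested as log2(FPKM + 1) with limma 3.58.1 in R 4.3.3 (eBayes with trend): 12 libraries of the knockdown arm in 1 fit, 6 of the overexpression arm in another, genes with a mean of at least 1 FPKM, Benjamini-Hochberg adjustment over all of them, calls at 0.05. A fold change on this scale understates that of low genes. The procedure was tested on simulated data. Npr1, below that level, had exact permutation tests.

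Members and lists were chosen with earlier results of these data known. Named besides the members were the called genes with the 4 smallest p of a pathway list in a comparison, Nppc, Edn2, Edn3, Corin and Furin, the 3 largest called changes of a marker list, and the 5 genes most alike to a member. Gata4, Gata6 and Nkx2-5 were also named for knockdown, beside the promoter letters. Replicate numbers were not treated as pairs, since the labels do not say whether they are. Deviations from the group means in libraries of the same number had correlations of -0.04 to 0.18. Alternatives were another pseudocount, 2 other filters, 2 scalings, 2 other sets of libraries, a replicate block, limma-voom on recovered counts, and each library left out. Promoters came from RefSeq (GRCm38.p6), a different build from that of the counts.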

Additional observations from a re-analysis of the deposited data

Results flagged for a closer look

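Among the named genes, Krt18, a simple-epithelium keratin of the epicardial and mesothelial marker list and not one of the 9 genes, differed in its response to knockdown with and without angiotensin II. It was at 23.4 ± 0.40 FPKM in si-NC, 42.4 ± 1.91 in si-Foxm1, 40.8 ± 3.04 in Ang-II and 44.9 ± 2.27 in si-Foxm1+Ang-II. The knockdown effect was 0.83 without and 0.14 with angiotensin II, a difference of -0.69 ± 0.07 on the log2 scale (limma, adjusted p = 0.000578).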

How the results depend on the processing

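Of 751 values of the 8 tested genes under the alternatives, 712 kept their direction and their side of the threshold. Of the total counts of calls, only that of the interaction moved by over 1.5 times (the split into higher and lower calls, which median-of-ratios scaling moved in the knockdown arm, is in the report): 103 genes passed, against 57 with no filter on low values, 169 with all 6 groups in the fit, 229 with limma-voom and 37 to 196 with a library left out. With quantile normalization 1 of the members passed there, Nppa, at -0.54 (adjusted p = 1.13e-05), against 0 otherwise. That normalization set the Nppa difference between Ang-II and si-NC to 0, as Nppa ranked second in every library of both groups. The interaction value then held only the drop with angiotensin II after knockdown. Other signs turned only for values that passed no test: in the interaction, Ednra to -0.0225 with a pseudocount of 0.1 and to -0.0283 with limma-voom, and Npr2 to 0.0109 with quantile normalization and 0.017 with median-of-ratios scaling; and Ednrb in si-Foxm1+Ang-II against Ang-II, to -0.0537 and -0.0087 with those scalings. With a library left out, signs also turned for the interaction of Nppa (-0.0475 to 0.0528), Npr2 (-0.0399 to 0.0132), Ednra (-0.042 to 0.086) and Ednrb (-0.0716 to 0.1814), and for Ednrb in si-Foxm1 against si-NC (-0.0614 to 0.0399), si-Foxm1+Ang-II against Ang-II (-0.0856 to 0.1675) and OE-Foxm1 against OE-NC (-0.0279 to 0.1255). Besides the calls given in the report, Ednra in si-Foxm1+Ang-II against si-Foxm1 was lost with quantile normalization (adjusted p = 0.0948), Npr3 in si-Foxm1+Ang-II against Ang-II with 6 groups fitted together (0.0614) or with the compared pair fitted alone (0.0555), Npr2 in si-Foxm1+Ang-II against si-Foxm1 passed with all 6 groups (0.0399), and Npr3 with overexpression passed with limma-voom (0.0429). The replicate number as a replicate block gave 7411 calls for si-Foxm1 against si-NC and 6210 for OE-Foxm1 against OE-NC, and among the members it changed only Nppb with overexpression (adjusted p = 0.0134). Apart from the Nppa interaction, the cause of these changes was not tested. Depth limits Npr1 and the Ednrb values under angiotensin II, which rest on 11 to 33 and 65 to 131 fragments per library.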
